A study of Mus musculus with 16 samples.

Results

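Areg, the gene of the growth factor amphiregulin, was followed through CD4+ T cells of lung and lymph nodes from mice infected with the nematode Nippostrongylus brasiliensis. It was chosen by its large difference between lung and mesenteric lymph node (MLN) in these libraries, so that difference is described here and was not tested. It is 1 of 31053 genes counted in the first experiment, here called the first run, and 1 of 32285 in the second. Of 21462 cells sorted as CD4+ and kept from both runs, 850 held at least 1 Areg UMI (unique molecular identifier, the tag by which 1 captured mRNA molecule is counted). All mice were 4get mice on the C57BL/6 background, in which cells that have switched on Il4 carry the green fluorescent reporter IL-4eGFP, and all were analyzed on day 10 after infection. In the first run, IL-4eGFP+ CD4+ cells of the perfused lung, which still held some intravascular cells, and of the MLN were sorted from 2 mice of 13 weeks, and each organ of each mouse was a 5′ single-cell RNA library with a matched T cell receptor (TCR) library. In the second run, cells of the mediastinal lymph node (medLN), which drains the lung, and of the MLN of 2 other mice of 10 weeks carried hashtag antibodies and were sorted into 1 IL-4eGFP+ and 1 IL-4eGFP- library. No uninfected mouse was analyzed here. Samples are named by organ and mouse, and mouse 1 of the first run is not mouse 1 of the second.

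Amphiregulin belongs to the epidermal growth factor (EGF) family. It is made as a membrane-bound precursor, is released by the protease ADAM17 and activates the EGF receptor on epithelial and stromal cells. In immunity to worms and in tissue repair it is known as a product of Th2 cells, group 2 innate lymphoid cells (ILC2), basophils, mast cells and regulatory T cells. Stimulation through the TCR, the alarmin IL-33 and signals that raise cyclic AMP are known to induce it.

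The Areg gene (ENSMUSG00000029378) lies on the plus strand at chr5:91139599-91148432 of the GRCm38 mouse genome, spans 8834 bases and has 6 exons in its principal transcript. The 100 bases before the RefSeq start, chr5:91139499-91139598 (GRCm38.p6, plus strand), are shown because they hold the binding sequence of cyclic AMP-responsive factors named above. In the line below, capitals mark the cyclic AMP response element and the TATA box:
Areg promoter: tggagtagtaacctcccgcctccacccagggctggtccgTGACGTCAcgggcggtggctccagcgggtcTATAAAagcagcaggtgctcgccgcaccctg
The full element, TGACGTCA, which reads the same on both strands, began 61 bases before the start and was present within 250 bases before the start in 508 of 32851 mouse RefSeq promoters (1.55%). TATAAA, searched on both strands like the others, began 31 bases before the start and was present in 12.4% of promoters. The AP-1 sequence TGANTCA was not in this window for Areg and was present in 6.75% of promoters. A match describes the sequence and does not show that a factor binds there.

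The libraries of the first run had a median of 4971 to 6910 UMIs per kept cell, those of the second 3324 and 3344. The CD4+ identity held in every sample, with the summed level of 6 CD4 T cell genes (Cd3d, Cd3e, Cd3g, Cd4, Cd5 and Lck) between 3924 and 5761 CPM (UMIs of a gene per 1000000 UMIs of the sample). Between 0 and 8 kept cell barcodes were shared by any 2 libraries of the first run, and the 2 libraries of the second run shared 113 (1.40% of the IL-4eGFP+ cells). Lung 1 without shared barcodes had the same share of Areg+ cells, 53.0%. Doublet calling with Scrublet marked 0 to 12 cells per library and did not work in the larger ones.

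Areg was found in many lung Th2 cells and in few MLN Th2 cells. In lung 1, 574 of 1082 cells held an Areg UMI (53.0%, 95% interval 50.03 to 56.1), and in lung 2, 102 of 416 did (24.5%, 20.5 to 28.9). In the MLN of the same mice it was 46 of 2462 cells (1.87%, 1.37 to 2.48) in MLN 1 and 9 of 754 (1.19%, 0.547 to 2.25) in MLN 2. The lungs thus differed from each other as well as from the MLN. These intervals cover counting error over the cells of 1 library and do not measure the spread between mice. As a level over all cells of a library, Areg reached 1446 and 446 CPM in the lungs of mouse 1 and mouse 2, and 10.6 and 2.90 CPM in their MLN. The ratio of lung to MLN was 136 in mouse 1 and 154 in mouse 2, while lung 1 stood 3.24 times above lung 2. At an equal depth of 2000 UMIs per cell the shares were 42.3%, 19.4%, 0.912% and 0.538%, after 14, 8, 51 and 11 shallower cells had been left out.

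Lung cells also held more Areg mRNA per positive cell. The median Areg+ cell had 10 Areg UMIs in lung 1 and 5 in lung 2, against 1 in both MLN libraries, and the cell with the most Areg held 305, 73, 47 and 3 UMIs, respectively. Cells with at least 5 Areg UMIs made up 36.3% of lung 1 and 13.5% of lung 2, against 0.162% of MLN 1. No cell of MLN 2 reached 5 UMIs, and with 754 cells up to 0.398% could have gone unseen. In lung 1, 23 cells held 100 or more. Without doublets and cells with surplus TCR chains, the highest cells of lung 1, lung 2, MLN 1 and MLN 2 held 305, 73, 24 and 3. Few cells made the MLN level, since 3 cells carried 51.3% of the Areg UMIs of MLN 1.

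**Figure D1:**
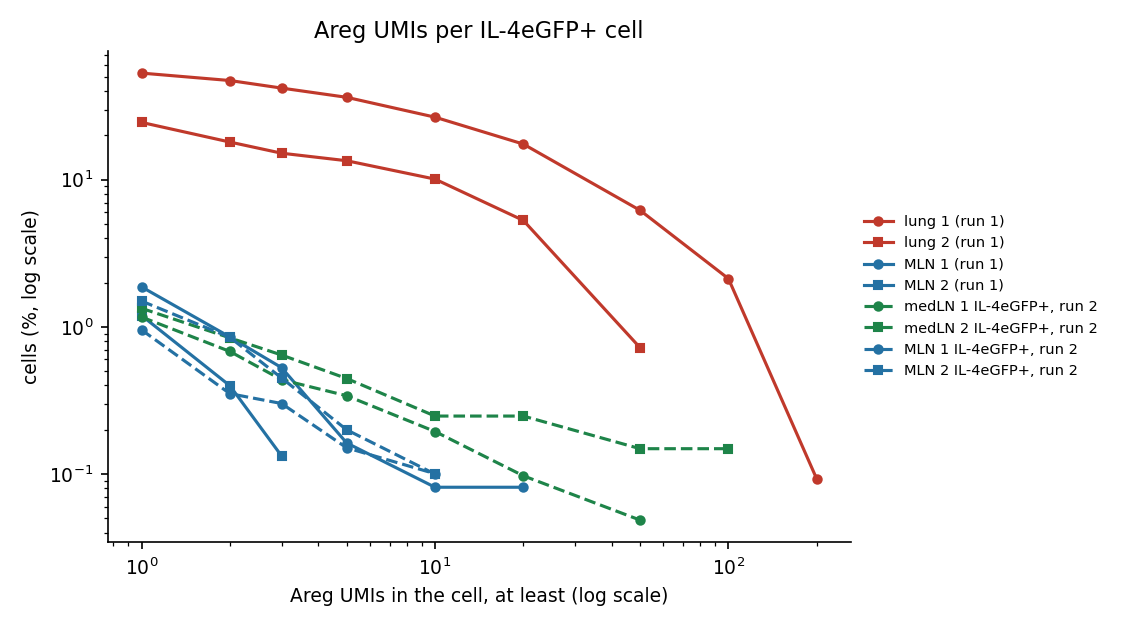
Share of IL-4eGFP+ cells (%, log scale) that held at least the number of Areg UMIs on the x axis (log scale), 1 line per sample, with points of 0 not drawn. Both lungs, at 53.0% and 24.5% of cells with 1 or more UMIs, lie above all 6 lymph node samples up to 50 UMIs; at 100 or more, lung 1 and 3 cells of medLN 2 remain.

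Over both runs, the 2 lungs stood apart at the top and the order below them was less clear. Lung 1 and lung 2 were followed by medLN 2 (61.9 CPM) and medLN 1 (16.1 CPM) of the IL-4eGFP+ node library. Next came the 4 MLN samples of IL-4eGFP+ cells, which lay between 2.90 and 10.6 CPM in the first run and between 5.87 and 7.71 in the second, so that the runs overlapped. The 4 IL-4eGFP- samples, at 0.259 to 1.59 CPM, came last, with medLN and MLN interleaved. The lowest IL-4eGFP+ sample, MLN 2 of the first run at 2.90 CPM (1.55 to 4.96), and the highest IL-4eGFP- sample, medLN 2 at 1.59 CPM (0.822 to 2.78), had overlapping counting intervals. Values of the 2 runs were set side by side without a common normalization beyond CPM.

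**Figure D2:**
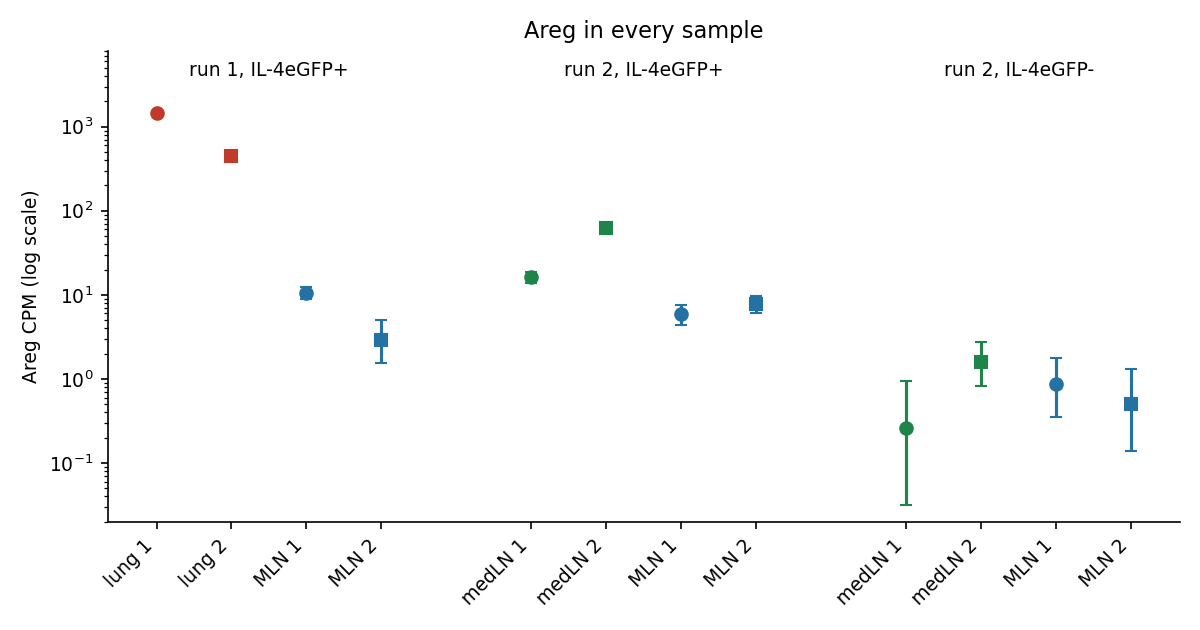
Areg level of each of the 12 samples (CPM, log scale; points with exact Poisson 95% intervals, which cover counting error only; circles mouse 1, squares mouse 2 of each run). Lung lies at 446 and 1446 CPM, IL-4eGFP+ lymph node samples between 2.90 and 61.9, and IL-4eGFP- samples between 0.259 and 1.59.

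The lung, but not the lymph nodes, was digested with enzymes and passed through a density gradient, so organ and preparation cannot be told apart. Of 10587 genes tested between lung and MLN by edgeR's quasi-likelihood test on summed counts, 1803 (17.0%) were higher and 1481 (14.0%) lower in lung. The early response genes, which many cells switch on within minutes of handling or of stimulation, were higher for 18 of 21 tested members and lower for 1 (Egr2), with a median log2 difference of 2.30 against -0.01 over all genes. Their summed level was 13707 and 12502 CPM in the lungs and 1894 and 1552 CPM in the MLN. Heat shock genes, which handling can also raise, were higher for 5 of 9, with a median of 0.57 on the log2 scale. Of 21 genes of the cyclic AMP pathway, 14 were higher and 2, Pde3b and Prkacb, were lower. The higher ones held the prostaglandin E2 receptors Ptger2 and Ptger4, the receptor subunits Calcrl and Ramp1 and the cyclic AMP-induced Crem. They also held Pde4b and Pde4d, which degrade cyclic AMP, and Nr4a1, which is counted among the early response genes too. These counts come from the contrast that chose Areg.

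Areg was also found in lung cells in which 4 of the early response genes, Fos, Fosb, Egr1 and Atf3, were not detected. Other early response genes were seen in most lung cells, with Junb in 98.1% and 96.8% of them at 2000 UMIs. Of Fos, Fosb, Egr1 and Atf3, Fos had the highest level, at 452 and 782 CPM in lung 1 and lung 2. Its Pearson correlation with Areg across lung cells at 2000 UMIs was -0.04 and -0.001, and that of Egr1 0.12 and 0.13. Junb and Nfkbia, which the split left out, were among the 20 genes most like Areg. A split by these 4 genes cannot stand for the early response genes as a whole. Of lung 1 cells at 2000 UMIs without a UMI of Fos, Fosb, Egr1 or Atf3, 174 of 424 held Areg (41.0%, 36.3 to 45.9), against 278 of 644 with such a UMI (43.2%, 39.3 to 47.1). In lung 2 it was 20 of 122 (16.4%, 10.3 to 24.2) against 59 of 286 (20.6%, 16.1 to 25.8). The intervals of these shares overlapped in both lungs. The Areg level was lower in cells without such a UMI in both mice. It was at 1263 (1188 to 1341) against 1533 CPM (1466 to 1602) in lung 1. In lung 2 it was at 410 (333 to 498) against 542 CPM (483 to 606), where the intervals met. These intervals of levels treat each UMI as independent, while 1 cell can hold many, so they are too narrow in both lungs. In lung 2, 3 cells held 65 of the 100 Areg UMIs of cells without such a UMI. The part of the preparation in the level of Areg was not tested.

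Clustering of the first run without Areg among its genes placed most Areg+ lung cells, like most lung cells, in effector Th2-like cells. This cluster, led by Cxcl2, Calca, Fgl2 and Il1rl1 and with 9 of 9 effector Th2 markers raised, held 99.8% lung cells. In lung 1, 485 of its 841 cells were Areg+ (57.7%, 54.2 to 61.0), at 1816 CPM, and they made up 84.5% of all Areg+ cells of that library. In lung 2, 80 of 294 were Areg+ (27.2%, 22.2 to 32.7), at 528 CPM, or 78.4% of its Areg+ cells. The cluster held 841 of all 1082 cells of lung 1 and 294 of all 416 cells of lung 2, so these shares of Areg+ cells start from a high base. The proliferating-like cluster, led by histone genes and Mki67 and with cells of both organs, had similar shares in lung, 55 of 98 cells (56.1%, 45.7 to 66.1) and 15 of 47 (31.9%, 19.1 to 47.1). Its cells had a median of 14505 UMIs, and its levels, at 667 and 433 CPM, were lower than those of the effector Th2-like cells in both lungs. In the same cluster, Areg was found in 6 of 113 cells of MLN 1 (5.31%) and in 0 of 32 cells of MLN 2, which allows up to 9.38%.

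Lung cells with a migrating-like profile held less Areg. In this cluster, led by Ccr7, S1pr1 and Klf2, genes of recirculation through lymph and blood, 30 of 124 cells of lung 1 (24.2%, 17.0 to 32.7) and 7 of 57 of lung 2 (12.3%, 5.08 to 23.7) were Areg+, at 390 and 212 CPM. These levels rested on few cells, since 3 cells held 47.2% of the Areg UMIs of the cluster in lung 1 and 88.5% in lung 2, and without them it was at 206 and 24.5 CPM. The share was below that of the effector Th2-like cells in both mice, with intervals that met in lung 2. At a finer resolution the effector Th2-like cells fell into 3 clusters that differed in Areg in the same order in both lungs. Cells led by Cxcl2, Il13, Ccl1 and Il5 had Areg in 65.9% and 36.2%, those led by Ppp1r15a, Calca, Vps37b and Fosl2 in 53.9% and 25.4%, and those led by Hspa1a, Igfbp7 and Ltb4r1 in 37.5% and 18.3% of cells in lung 1 and lung 2. The clusters were made from the same cells, so these are descriptions.

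In MLN 1, Areg was concentrated in 1 small cluster that had no name among the fixed markers. It was led by Deptor, the gut-homing receptor Ccr9, St3gal6, Lgmn, Lag3, the neuromedin U receptor Nmur1 and Gzma, and 3 of 9 effector Th2 markers were raised in it. In MLN 1, 22 of its 167 cells were Areg+ (13.2%, 8.44 to 19.3), at 80.2 CPM, and they held 61.0% of the Areg UMIs of the library while the cluster made up 6.78% of its cells. Of its 94 Areg UMIs in MLN 1, 1 cell held 47 and 3 cells 63.8%, and without these 3 the level was 29.0 CPM. The cell with 47 UMIs had surplus TCR chains. With all cells of surplus TCR chains left out, the whole MLN 1 library was at 7.68 CPM and its highest cell held 24 UMIs. In MLN 2, 3 of 66 were Areg+ (4.55%, 0.947 to 12.7), at 12.5 CPM from 6 UMIs. The cluster led by Tnfrsf9, Il2 and Csf2 had 5 Areg+ cells of 109 in MLN 1 and 2 of 33 in MLN 2, and the follicular helper-like cluster 4 of 137 and 2 of 57. The innate-like cluster, led by Ccl5 and Zbtb16, had none in 88 cells, of which 9 were from lung, too few to serve as a measure of free RNA there.

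**Figure D3:**
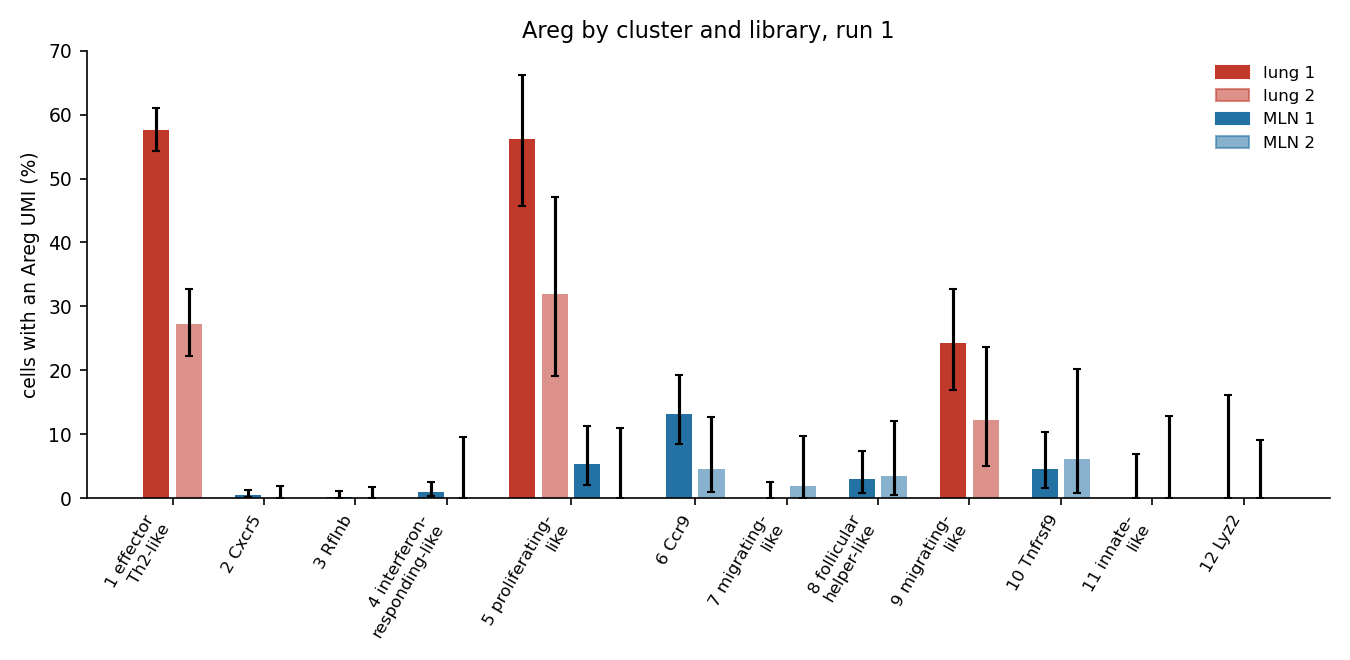
Share of cells with an Areg UMI (%, bars from 0) by cluster and library in the first run, with exact 95% binomial intervals, for clusters with at least 10 cells in a library; clusters without a name carry a leading gene. Lung cells of clusters 1 and 5 reach 57.7% and 56.1% in lung 1, lung cells of cluster 9 reach 24.2%, and the Ccr9-led cluster 6 reaches 13.2% in MLN 1.

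Cells that share a TCR, and so descend from 1 T cell, did not all hold an Areg UMI. Of 130 lung 1 clones with 2 or more lung cells, 41 had Areg in every cell, 69 in some and 20 in none. Of 30 such clones in lung 2, 2 had it in every cell, 17 in some and 11 in none. These clones were small, with 327 cells in the 130 clones of lung 1 and 71 in the 30 of lung 2. A cell without an Areg UMI may hold Areg that was not captured. Whether these counts differ from those of unrelated cells was not tested. The share of Areg+ cells was 61.8% (56.3 to 67.1) in expanded clones and 49.3% (45.6 to 52.9) in clones of 1 lung cell of lung 1, and 32.4% (21.8 to 44.5) and 22.9% (18.6 to 27.7) in lung 2. Cells of 1 clone share their history, so these intervals are too narrow, and in lung 2 they overlapped.

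Clones found in both organs carried Areg on the lung side. In mouse 1, 105 clones had cells in lung and MLN, and 72 of their 142 lung cells (50.7%, 42.2 to 59.2) but 5 of their 186 MLN cells (2.69%, 0.878 to 6.16) held Areg. In mouse 2, 21 clones had 7 Areg+ of 32 lung cells (21.9%, 9.28 to 40.0) and 0 of 22 MLN cells, which allows up to 13.6%. The lung cells of shared clones had about the Areg share of the other lung cells, which was 53.4% in lung 1 and 24.7% in lung 2.

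The genes that went with Areg across lung cells were led by Hilpda, which codes for a lipid droplet protein induced by low oxygen. Likeness was the lower of the 2 mice's Pearson correlations of log counts at 2000 UMIs per cell, over 1068 and 408 cells of 1 library each and 4284 genes seen in at least 5% of cells. All correlations were weak, 0.28 and 0.18 for Hilpda in lung 1 and lung 2, and the 20 genes most like Areg had 0.10 or more in both. They held the early response genes Junb, Egr1 and Nfkbia, the NF-κB pathway genes Nfkb1 and Nfkbiz, the survival genes Bcl2a1b and Bcl2a1d, and the stress gene Gadd45b. They also held the Th2 cytokine Il13 (0.19 and 0.13), the IL-33 receptor Il1rl1 (0.10 and 0.13) and Gata3 (0.10 and 0.23), the transcription factor that defines Th2 cells. Tmsb4x, Capg, Ifrd1, Rbpj, Igfbp7, Lgals1, S100a6 and Vim completed the list. Least like it were Tcf7 (-0.17 and -0.11), a factor of naive and memory T cells, Ccr7 (-0.12 and -0.10), Rps18, Trat1 and Gimap3. Correlations were also taken over 7154 IL-4eGFP+ node cells of the other mice. Only 15, 14, 11 and 18 of these cells held Areg in medLN 1, medLN 2, MLN 1 and MLN 2. There 19 of the 20 genes most like Areg were positive, against 48.4% of the 4233 genes that could be compared. They ranged from 0.41 for Il13 to values near 0, such as 0.01 for S100a6, 12 of them were at 0.05 or more (2.72% of all), and Ifrd1 was at -0.01. The 5 unlike genes were negative.

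Cells with Areg were compared with cells without it inside the lung, on counts summed per mouse. Without a pairing of the mice, 12 of 9479 genes passed edgeR's quasi-likelihood test (0.127%), 6 higher and 6 lower in Areg+ cells. Ltb4r1, the receptor for the lipid attractant leukotriene B4, was at 154 and 133 CPM in Areg+ and at 73.2 and 62.0 CPM in Areg- cells of lung 1 and lung 2. It rose by 1.13 ± 0.17 (SE) on the log2 scale, with an adjusted p of 0.0426 by edgeR. Klf2, a factor that keeps T cells recirculating, was at 35.9 and 52.0 CPM against 101 and 121, a difference of -1.41 ± 0.17 and an adjusted p of 0.0127 by edgeR. Myo6 differed by -0.97 ± 0.14, with an adjusted p of 0.0365 by edgeR. For these 3 genes the Areg+ and Areg- values did not overlap. The other rises were Mt1 and the chemokines Ccl3, Ccl4 and Ccl9 with Ifitm1, and the other falls Actn1, Pdlim4, Rflnb and Trat1. In lung 2, 1 cell held 23 of the 25 Mt1 UMIs of Areg+ cells.

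Ccl3, Ccl4, Ccl9 and Ifitm1 rested on 1 cell per mouse. In lung 1 a cell with 48 UMIs of basophil and mast cell markers held 155 of the 158 Ccl3 UMIs of Areg+ cells, and in lung 2 a cell with 11 such UMIs held all 47. Basophil and mast cell markers summed to 16.0 and 14.7 CPM in Areg+ and to 0.261 and 2.93 CPM in Areg- cells. In all, 7 lung cells had such a marker, 4 of them with Areg, and these 4 held 216 UMIs or 1.59% of the Areg UMIs of lung. Without the 7 cells 6 genes passed, 1 higher and 5 lower, and Klf2 was the gene of at least 50 CPM among them. Ltb4r1 and Myo6 were then no longer called, with adjusted p of 0.0723 and 0.0743 by edgeR, while their log2 differences stayed at 1.10 and -0.91.

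With the mouse as a block, since both sums of a lung come from the same animal, 321 genes passed, 200 higher (2.11%) and 121 lower (1.28%) in Areg+ cells. This fit has 1 residual degree of freedom, so its errors lie near the counting error of these 2 mice. Without the cells with basophil or mast cell markers, 268 genes passed. Areg+ cells had somewhat more UMIs, a median of 7356 against 6523 in lung 1 and 5830 against 5725 in lung 2.

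Areg went with other effector cytokines in this paired comparison. Il5, the eosinophil growth factor, was at 151 CPM in Areg+ and 13.9 in Areg- cells of lung 1, and at 48.0 and 24.4 in lung 2. It rose by 2.72 ± 0.17 (log2, SE; adjusted p of 3.3e-56 by edgeR with the block), though the step was much larger in mouse 1. This p and the SEs of this paragraph lie near counting error and do not measure the spread between the mice. Il13, which drives mucus and worm expulsion, was at 443 against 172 CPM and at 233 against 88.4 CPM, a rise of 1.40 ± 0.09. Calca, the gene of calcitonin gene-related peptide, was at 407 against 197 and 228 against 103 CPM, and rose by 1.10 ± 0.09. Cxcl2, a neutrophil attractant, was at 364 against 74.5 and 69.4 against 33.7 CPM, and rose by 2.07 ± 0.11. Both mice showed higher values in Areg+ cells for each of these 4 genes. Of 18 cytokine genes tested, 14 rose and 1, Ifng, fell, with a median log2 difference of 1.03. Of the 14, 13 were higher in Areg+ cells of both mice. Penk was higher in lung 1 only, at 23.3 against 2.35 CPM, and at 0 against 4.39 CPM in lung 2, and Ccl1 was at 307 against 103 CPM in lung 1 but at 105 against 99.1 CPM in lung 2. Il4, at 471 against 416 and 447 against 365 CPM, was among the 14 and was no longer called without the basophil or mast cell marker cells, where 12 rose. None of the 18 was called without the block, where 0.127% of all genes were.

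**Figure D4:**
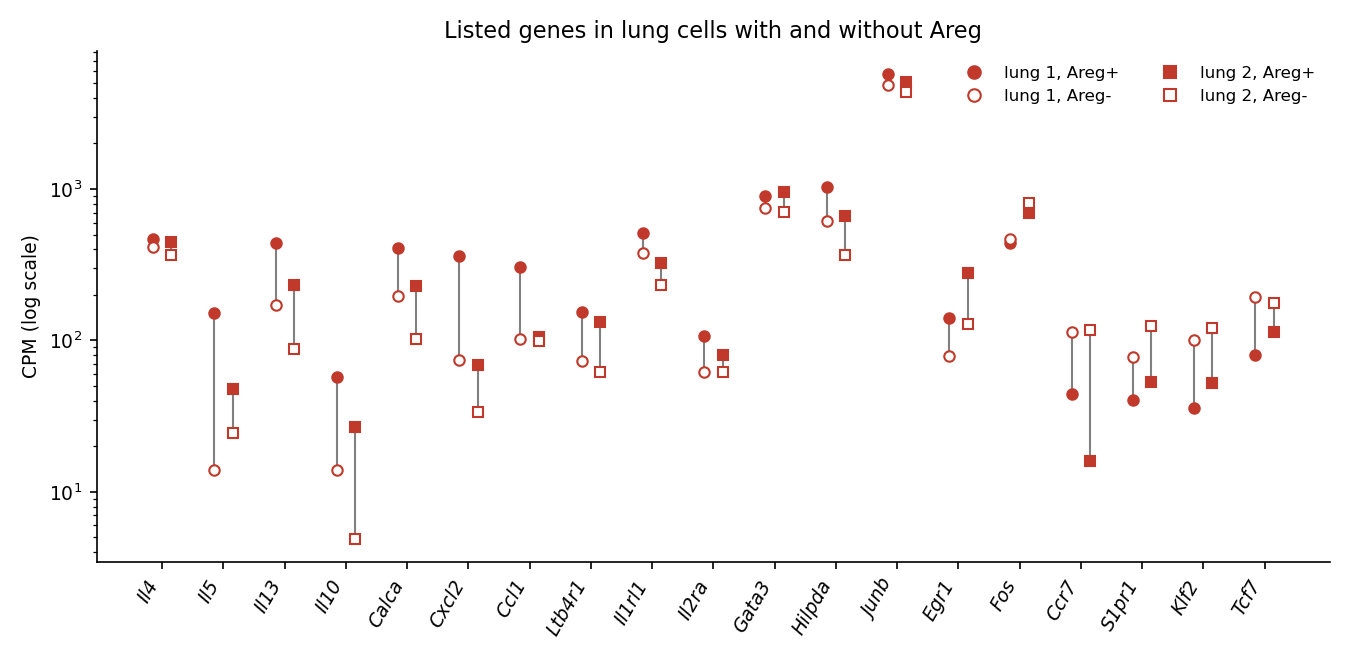
Level (CPM, log scale) of 19 listed or named genes in lung cells with Areg (filled) and without (open), for lung 1 (circles) and lung 2 (squares), each point a sum over the cells of 1 mouse. Il5 goes from 13.9 to 151 CPM in lung 1 and from 24.4 to 48.0 in lung 2, Ccr7 from 113 down to 44.2 and from 117 down to 16.0, and Il4 and Fos differ little.

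The same fit moved genes of effector identity and of recirculation in opposite directions. Of 9 effector Th2 markers 6 rose (Il1rl1, Gata3, Plac8, Il2ra, Il13 and Il5) with a median of 0.37 on the log2 scale, and none fell. All 7 migrating markers fell, with a median of -1.07. Among them Ccr7, the receptor for entry into lymph vessels and nodes, was at 44.2 CPM in Areg+ against 113 in Areg- cells of lung 1 and at 16.0 against 117 in lung 2, a fall of 1.58 on the log2 scale. S1pr1, which guides T cells out of tissue and nodes, was at 40.4 against 77.4 and 53.4 against 124 CPM, and Tcf7 at 79.7 against 195 and 113 against 177. Without the block, Klf2 was the single member of these 2 lists that passed. The paired fit also named Ccl1, Lag3, Egr1, Igfbp7, Tnfsf8, Hilpda and Lmna as higher and Slamf6, Tagap, Socs3 and Myo6 as lower among genes of at least 50 CPM.

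Receptors for signals known to induce Areg were compared in the same way. Of 13 alarmin and IL-2 family receptor genes 5 rose with the block, among them Il1rl1, at 515 against 379 CPM and 327 against 232 CPM, and the IL-2 receptor chain Il2ra, at 107 against 61.9 and 80.0 against 61.5. None fell, and the median was 0.28 on the log2 scale. Of the 21 cyclic AMP pathway genes 2 rose (Creb3l2 and Nr4a1) and Pde4b, which degrades cyclic AMP, fell. Of 21 early response genes 9 rose and 2 fell, with a median of 0.24, and Fos itself was at 438 against 469 and 692 against 815 CPM. None of the 9 heat shock genes passed, and none of the 7 proliferating markers did. Of all genes tested 2.11% rose and 1.28% fell with the block, so these 2 zeros lie near that share and say little. Without the block no receptor, cyclic AMP, early response, heat shock or proliferating gene of these lists passed, where 0.127% of all genes did.

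In lung cells no other ligand of the family came near Areg, which stood at 1446 and 446 CPM there. The other 8 EGF family ligands (Ereg, Hbegf, Tgfa, Btc, Epgn, Egf, Nrg1 and Nrg4) reached at most 4.00 CPM in any sample of the first run and 3.45 CPM in the second, and Ereg, which codes for epiregulin, was at 0 in all 12 samples. Where Areg was low the difference was small or reversed. Btc, which codes for betacellulin, was above Areg in all 4 IL-4eGFP- samples, at 1.49 to 3.45 CPM, and Nrg4 was at 2.01 CPM beside 2.90 CPM of Areg in MLN 2 of the first run. The receptors Egfr, Erbb2, Erbb3 and Erbb4 were at most at 2.48 CPM in the first run. Among genes of ligand release, Furin was at 402 and 374 CPM in Areg+ and at 273 and 293 CPM in Areg- lung cells, and was the single member of 6 tested that passed with the block. Adam17, the protease that frees amphiregulin, was at 28.2 and 26.7 against 30.8 and 31.7 CPM and did not pass.

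Several markers of myeloid, B, epithelial and granulocytic cells were not detected in lung, and the basophil and mast cell genes are given above. Lyz2, C1qa, C1qb and Itgax of myeloid cells, Ms4a1 and Ebf1 of B cells, Sftpc, Krt8 and Cldn4 of epithelium, and Epx, Prg2, S100a8, S100a9 and Retnlg of granulocytes were at 0 in both lungs. Summed over 8 genes, myeloid markers were at 73.1 and 44.0 CPM in Areg+ and at 39.5 and 47.4 CPM in Areg- cells, most of it Cd74. This gene passed with the block but was higher in Areg+ cells of lung 1 only, at 70.5 against 36.1 CPM, and at 38.7 against 45.9 CPM in lung 2. The 6 CD8 and NK cell markers summed to 10.9 and 9.34 against 20.6 and 26.4 CPM, while genes of regulatory T cells and of ILC2 were not low. The 7 regulatory T markers summed to 1015 and 902 CPM in Areg+ and to 841 and 795 CPM in Areg- cells, and over all cells they stood at 937 and 824 CPM in the lungs against 331 and 294 CPM in the MLN. Most of the sum in Areg+ cells was Ctla4, at 456 and 444 CPM, and Tnfrsf18, at 373 and 281 CPM. Foxp3 itself was at 1.28 and 5.34 CPM in Areg+ and at 1.83 and 1.46 CPM in Areg- cells. The 6 ILC2 genes, which Th2 cells share in part, summed to 818 and 660 CPM in Areg+ and to 624 and 442 CPM in Areg- cells, and over all cells they stood at 731 and 500.3 CPM against 62.9 and 88.9 CPM in the MLN. The 6 CD4 T cell genes stood at 4408 and 4234 against 4256 and 4235 CPM. Every one of these cells had a productive TCRα and TCRβ chain, which the filter required. The part of other cell types in the levels of Areg+ cells was not tested beyond the cells left out above.

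In the lymph nodes of the second run, Areg was largely a gene of IL-4eGFP+ cells. It was found in 100 of 8074 IL-4eGFP+ cells (1.24%, 1.01 to 1.504) and in 19 of 8674 IL-4eGFP- cells (0.219%, 0.132 to 0.342). As a level it was at 16.1 CPM in IL-4eGFP+ against 0.259 in IL-4eGFP- cells of medLN 1, 61.9 against 1.59 in medLN 2, 5.87 against 0.867 in MLN 1 and 7.71 against 0.507 in MLN 2. All 4 IL-4eGFP+ values lay above all 4 IL-4eGFP- values. The difference was 4.15 ± 0.64 (log2, SE), with an adjusted p of 1.8e-04 by edgeR, in a comparison in which 62.1% of 11534 genes passed. The 4 samples of each gate were 1 library, so gate and library cannot be told apart and the p measures the spread among hashtag samples. Basophil and mast cell markers summed to 1.09 to 2.82 CPM in the IL-4eGFP+ samples and to 0 to 0.129 CPM in the IL-4eGFP- samples. No TCR was required of node cells, and the part of such cells in the node level of Areg was not tested.

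Within the IL-4eGFP+ cells, the medLN samples were above the MLN samples in level but not in the share of Areg+ cells. The mean level was 39.0 ± 32.4 CPM (SD, n = 2) in medLN and 6.79 ± 1.30 CPM (SD, n = 2) in MLN. The difference of 2.50 ± 0.52 on the log2 scale had an adjusted p of 0.0434 by edgeR, where 1.38% of genes passed. Areg+ cells made up 24 of 2058 (1.17%, 0.749 to 1.73) and 27 of 2020 (1.34%, 0.883 to 1.94) in medLN, and 19 of 1992 (0.954%, 0.575 to 1.49) and 30 of 2004 (1.497%, 1.01 to 2.13) in MLN, so the shares overlapped. In medLN 2, 3 cells held 452 of its 588 Areg UMIs (76.9%), and the level without them was 14.3 CPM. In medLN 1, 3 cells held 94 of its 153 Areg UMIs (61.4%), and the level without them was 6.21 CPM. Without their 3 highest cells, MLN 1 and MLN 2 were at 2.61 and 4.89 CPM. With each cell counted at no more than 10 Areg UMIs the difference was 0.67 with an adjusted p of 0.382 by edgeR, and without medLN 2 it was 1.23 with an adjusted p of 0.218. With the mouse as a block the number of genes that passed went from 159 to 313, with Areg at 2.40 and an adjusted p of 9.1e-04.

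In IL-4eGFP- cells, medLN and MLN were not told apart. The mean was 0.924 ± 0.942 CPM (SD, n = 2) in medLN and 0.687 ± 0.254 CPM (SD, n = 2) in MLN, a log2 difference of 0.35 ± 1.61 with an adjusted p of 0.995 by edgeR, where 0.0434% of genes passed, or 5 genes, and 21 with the mouse as a block. Whether the organs differed more in IL-4eGFP+ than in IL-4eGFP- cells was tested as an interaction, at 2.15 ± 1.81 on the log2 scale with an adjusted p of 0.894 by edgeR.

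Of the 19 Areg+ cells among IL-4eGFP- cells, 14 were cells with Foxp3, the factor that defines regulatory T cells. Areg was in 2 of 220, 8 of 257, 3 of 189 and 1 of 232 cells with a Foxp3 UMI in medLN 1, medLN 2, MLN 1 and MLN 2. Among cells without a Foxp3 UMI it was in 0 of 1947, 1 of 1834, 2 of 2060 and 2 of 1935. Together, 14 of 898 Foxp3+ cells (1.56%, 0.855 to 2.60) and 5 of 7776 others (0.0643%, 0.0209 to 0.150) held it, although the Foxp3+ cells were shallower, at a median of 2920 against 3357 UMIs. Of the 14 cells, 8 were from medLN 2, and in MLN 2 1 of the 3 Areg+ cells had Foxp3. At 2000 UMIs per cell, with Foxp3 also read at that depth, Areg was in 0 of 130, 3 of 172, 2 of 127 and 0 of 141 Foxp3+ cells and in 1 of 1843, 1 of 1728, 0 of 1910 and 1 of 1830 others. The level over all cells was 5.77 CPM, from 20 UMIs, against 0.180 CPM, from 5 UMIs. The difference was 4.62 ± 0.70 on the log2 scale with an adjusted p of 8.4e-05 by edgeR, in a comparison in which 26.8% of genes passed. This fit counted medLN and MLN of the same 2 mice, all in 1 library, as separate samples. It did not pair the Foxp3+ and Foxp3- cells of a sample. Of the 20 UMIs, 11 were from medLN 2. With so few UMIs Areg lay below the usual filter on low counts and was kept in this test by a rule set for it. Foxp3+ cells were defined here by mRNA and not by protein.

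Areg+ cells of the nodes carried type 2 cytokine mRNA more often than other IL-4eGFP+ cells. At 2000 UMIs per cell, 28 of 58 Areg+ node cells held an Il13 UMI (48.3%, 35.0 to 61.8), against 104 of 7096 others (1.47%). By sample it was 9 of 15, 9 of 14, 2 of 11 and 8 of 18 in medLN 1, medLN 2, MLN 1 and MLN 2. In the lung, where Il13 is common, it was 24.8% against 13.1% in lung 1 and 19.0% against 10.0% in lung 2. Il5 was in 8 of 58 node cells (13.8%) against 0.395%, and Il10, which restrains inflammation, in 11 of 58 (19.0%) against 0.536%. Most of these cells were from medLN 2, with 5 of the 8 and 6 of the 11, and without that sample the shares were 3 of 44 (6.82%) against 0.357% for Il5 and 5 of 44 (11.4%) against 0.582% for Il10. In the lung Il5 was in 8.63% against 1.95% in lung 1 and in 5.06% against 1.82% in lung 2, and Il10 in 7.08% against 1.95% in lung 1 but in 2.53% against 2.13% in lung 2. Gata3 was in 60.3% against 22.2%, Plac8 in 41.4% against 8.05% and Il1rl1 in 19.0% against 2.54% of node cells. Il4 was in 44.8% against 24.4% in the nodes and in 37.4% against 33.0% in lung 1, but in 39.2% against 40.7% in lung 2. Areg+ node cells had a median of 7176 UMIs before thinning against 3327 in the others. These shares were described and not tested, and node cells with basophil or mast cell markers were not left out of them.

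Calca and Cxcl2, which went with Areg in the paired lung comparison, were hardly seen in the nodes. Calca was in 1 of 58 Areg+ node cells and in 5 of 7096 others, and Cxcl2 in 0 of 58, which allows up to 5.17%, and in 0 of 7096. In the lung Calca was in 26.3% of Areg+ against 13.5% of other cells in lung 1 and in 19.0% against 10.0% in lung 2. Cxcl2 was in 11.9% against 3.57% in lung 1, but in 2 of 79 (2.53%) against 1.82% in lung 2. Genes of recirculating and follicular cells were compared in the same way. In the nodes Ccr7 was in 0 of 58 Areg+ cells against 11.6% of others, Tcf7 in 13.8% against 62.1%, and the follicular receptor Cxcr5 in 3 cells (5.17%) against 14.6%. In the lung Ccr7 was in 2.21% against 9.90% in lung 1 and 1.27% against 10.3% in lung 2, and Tcf7 in 11.1% against 24.2% and 15.2% against 21.9%. Cxcr5 was in 0 of 452 Areg+ cells against 3.08% of others in lung 1 and in 0 of 79 against 0.304% in lung 2, where the zero says little. Foxp3 was in 1 of 452 and 1 of 79 Areg+ lung cells and in 0 of 58 Areg+ IL-4eGFP+ node cells, which allows up to 5.17%. Over all lung cells it was at 1.53 and 2.50 CPM in lung 1 and lung 2, so these low counts say little about Areg+ cells.

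**Figure D5:**
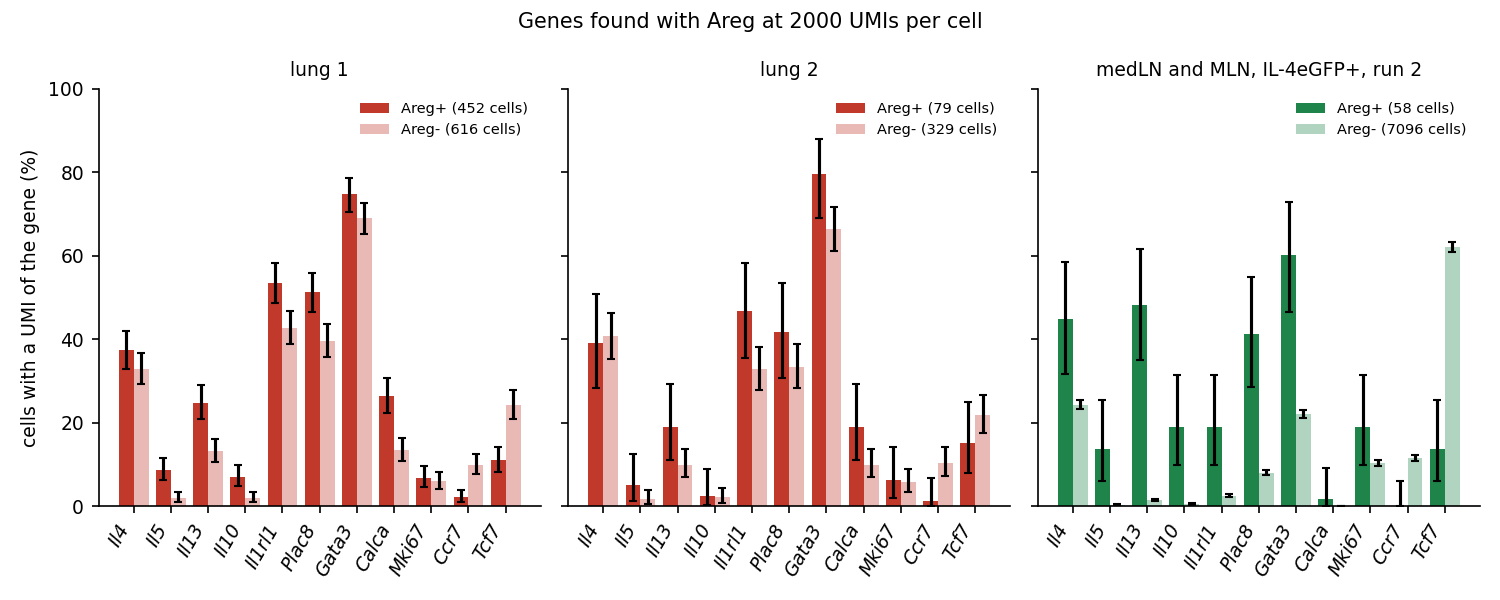
Share of cells (%, bars from 0, exact 95% binomial intervals) with a UMI of each gene among cells with Areg (dark) and without (light), at 2000 UMIs per cell, in lung 1, lung 2 and the IL-4eGFP+ node cells of the second run. In the nodes Il13 is in 48.3% of Areg+ cells against 1.47% of others, and Tcf7 in 13.8% against 62.1%; Calca is frequent beside Areg in lung 1 (26.3%) but not in the nodes.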

How the data were processed

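UMI counts per gene and cell barcode, as deposited, were used without change. The authors made them with Cell Ranger (2.1.1 and 3.0.1 in run 1 and 6.1.2 in run 2, per the submitters' processing notes) against mm10, and replicates were not pooled. By the labels, the counts of each library of run 1 combine 2 sequencing runs of that library. Hashtag counts of the same kind were deposited with run 2. TCR contig tables served only to keep cells and define clones.

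Kept cells had more than 500 UMIs and 500 genes, less than 7% of UMIs from mitochondrial genes and a novelty score (log genes over log UMIs) above 0.8, and in run 1 also productive TCRα and TCRβ chains. Hashtags were called with HTODemux (Seurat 5.3.0). Counts were summed per sample and tested with edgeR 4.0.16 (R 4.3.3; filterByExpr, TMM, quasi-likelihood, Benjamini-Hochberg, threshold 0.05), and the test was tested on simulated data. DESeq2 1.42.0 was an alternative. Same-numbered samples of a run came from the same mouse, by the labels, and the correlation of their deviations was 0.0398 for lung and MLN, 0.238 for Areg+ and Areg- cells, 0.00602 to 0.0675 for Foxp3+ and Foxp3- cells and 0.0338 to 0.196 in the nodes. With 2 mice a run, p-values measure at most the spread among these samples. Those of the Areg+ against Areg- fit with the mouse as a block lie near counting error and do not measure the spread between the mice.

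Shares have exact Clopper-Pearson 95% intervals, levels in CPM exact Poisson 95% intervals, and a count of 0 the limit that 3 counts give. All cover counting error only. The Poisson intervals treat UMIs of 1 cell as independent and are too narrow. Cells were thinned at random to 2000 UMIs. Clusters were made with Seurat at a resolution of 0.8, and of 0.5 and 1.2 as alternatives, without TCR genes and Areg. TCR genes were left out of tests. A few marker genes are not reported here.

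Areg and the gene lists were chosen with earlier results of these data known. The text names Areg, list members, the 20 genes most and 5 least like Areg across lung cells, and up to 12 rises and 8 falls between Areg+ and Areg- lung cells with an adjusted p below 0.05, a mean of at least 50 CPM and the same direction in both mice. Other called genes were named after their values were seen.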

Additional observations from a re-analysis of the deposited data

Results flagged for a closer look

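Barcodes outside the comparisons held Areg too. Of the lung barcodes that passed the quality filters without a full TCR, 249 of 523 in lung 1 (47.6%, 43.3 to 52.0) and 44 of 208 in lung 2 (21.2%, 15.8 to 27.3) had an Areg UMI, above the MLN libraries. In MLN 1 such barcodes had it in 6 of 348 (1.72%), above the share that a count of 0 allows, and in MLN 2 in 1 of 145. Barcodes called doublets by their hashtags had Areg in 33 of 1256 (2.63%, 1.82 to 3.67) in the IL-4eGFP+ and in 6 of 1280 (0.469%, 0.172 to 1.02) in the IL-4eGFP- library, again above the share that a count of 0 allows. Kept cells of these libraries had it in 1.24% and 0.219%. A doublet barcode holds more than 1 cell, so its share is not that of single cells.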

How the results depend on the processing

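The IL-4eGFP+ excess of Areg in the nodes passed under all 15 alternatives (3.16 to 5.03 on the log2 scale), the Foxp3+ excess under all 13 (4.03 to 4.94), and the interaction under none of 15 (0.32 to 3.92). Leaving out Scrublet doublets, counted among the 15 alternatives of the node fits, returned the main values unchanged and was no check. The medLN excess in IL-4eGFP+ cells was lost in 10 of 15: by DESeq2 (2.51, adjusted p of 0.502), with the largest hashtag at least 3 times the second (2.39, adjusted p of 0.0515), with at most 10 Areg UMIs per cell, an alternative added after seeing the data (0.67), and in 7 of 8 fits without 1 sample, which ranged from 1.23 to 3.16. In IL-4eGFP- cells the direction turned without medLN 2 (-1.43; range without 1 sample -1.43 to 1.14). The 12 genes that differed between Areg+ and Areg- lung cells became 321 with the replicate block, 160 without a filter on low counts, 92 without the TCR criterion, 23 at 2000 UMIs, 22 without doublets or surplus TCR chains, 5 without Mki67+ or Top2a+ cells, 0 to 126 without 1 sum (0 without Areg- cells of mouse 1, where 475 had an unadjusted p below the threshold), 15 by DESeq2, and, in alternatives added after seeing the data, 6 without basophil or mast cell marker cells and 268 with those left out and the block. The 3284 genes between lung and MLN were 1690 by DESeq2 and 1916 to 3673 without 1 library. The log2 ratio of Areg, lung over MLN, was 7.18, and 7.55 without Mki67+ or Top2a+ cells and 7.62 at 2000 UMIs. The replicate block changed no call on Areg itself. The cause of these changes was not tested. Depth limits the IL-4eGFP- values, which rest on 2 to 12 Areg UMIs per sample.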

Other observations

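In the largest lung clone of each mouse, 9 of 11 cells of mouse 1 (81.8%, 48.2 to 97.7) and 2 of 7 cells of mouse 2 (28.6%, 3.67 to 71.0) held Areg. Clones with 3 or more lung cells had Areg in 98 of 141 cells of lung 1 (69.5%, 61.2 to 77.0), at 2560 CPM, and in 7 of 23 cells of lung 2 (30.4%, 13.2 to 52.9), at 266 CPM. Pparg, a lipid-sensing factor of Th2 cells, was in 11.7% of Areg+ against 7.14% of other cells in lung 1, in 8.86% against 5.78% in lung 2 and in 5 of 58 (8.62%) against 1.35% in the IL-4eGFP+ node cells, at 2000 UMIs per cell. The proliferation gene Mki67 was in 11 of 58 Areg+ node cells (19.0%) against 10.3% of others, and in 6.86% against 6.01% in lung 1 and 6.33% against 5.78% in lung 2.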
